A study of Mus musculus with 10 samples.

Results

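The 3 loci described here are a pair of mature microRNAs, mmu-miR-5121 and mmu-miR-7649-3p (miR-5121 and miR-7649-3p in what follows), and 1 small nucleolar RNA (snoRNA), ENSMUST00000158915. They were taken from the 6968 features of a small RNA count table because their counts were lower in B-cells without one of the enhancers of the immunoglobulin heavy chain locus (Igh) than in wild-type (wt) B-cells. These are the 3'RR, a regulatory region downstream of the constant genes, and Eµ, which lies in an intron of the locus. Since the loci were chosen by their counts in these libraries, their differences between genotypes are given as a description without a test. Their response to lipopolysaccharide (LPS), the features that lie next to them and their sequences were not used in the choice.

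Small RNA was sequenced from CD43- spleen cells, a B-cell preparation depleted of CD43-bearing cells. The 10 libraries fall into 6 groups, namely wt, 3'RR-deficient and Eµ-deficient cells without stimulation or with LPS, at 5 µg/ml in one field of the labels and 5 mg/ml in others. Each wt and 3'RR-deficient group has 2 libraries and each Eµ-deficient group has 1, so the Eµ-deficient values have no replicate within a condition. Each library pooled cells of 2 mice, and a replicate is therefore a pool. The mice were of 129 background, 8 to 12 weeks old and of both sexes, and the methods name the Eµ-deficient line as lacking Eµ with its MAR segments. The deletions are carried in the germline and are not limited to B-cells. The labels give 2 days of culture for every library, whereas the study's methods describe cells taken before and after stimulation, so an LPS difference may include the effect of culture, and these cannot be told apart.

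MicroRNAs are short RNAs that guide Argonaute proteins to messenger RNAs, mainly through pairing of the seed at their 5' end. A classical microRNA is cut from a hairpin precursor by Drosha and Dicer. Box C/D snoRNAs guide the methylation of ribosomal RNA, are often released from introns of ribosomal protein genes, and are held in a protein complex through their box C and box D motifs. Some entries of microRNA catalogues overlap snoRNAs, and LPS is a bacterial ligand of Toll-like receptor 4 that makes resting B-cells divide.

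The mature sequences of both microRNAs and of the opposite arm of Mir7649 are shown, since the seed is the part that pairs with targets and the whole sequence decides which loci a read can come from. They are written 5' to 3' as RefSeq gives them (GRCm38.p6), with the seed, bases 2 to 8, in capitals.
miR-5121: aGCUUGUGaugagacaucucc
miR-7649-3p: uCUCUCCAgcacugcuuguuucu
miR-7649-5p: uGACAGCAgugcuguagacaug
Among 1679 mature mouse sequences, no other microRNA had the seed of miR-5121. The seed of miR-7649-3p was shared with miR-3473c, which had between 0 and 8 counts per library.

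In the mm10 build used for the table, miR-5121 occupies 21 bases at chr7:45126925-45126945 on the minus strand. This interval lies inside Snord33, a box C/D snoRNA at chr7:45126864-45126947 that sits in an intron of most transcripts of Rpl13a, the gene of a protein of the large ribosomal subunit, and within an exon of 2 other Rpl13a transcripts. The catalogued hairpin Mir5121 extends beyond Snord33 on the 5' side, at chr7:45126918-45126991. Both host RNAs are shown from GENCODE M21, with the bases of miR-5121 in capitals, because the microRNA takes bases 3 to 23 of the snoRNA.
Snord33: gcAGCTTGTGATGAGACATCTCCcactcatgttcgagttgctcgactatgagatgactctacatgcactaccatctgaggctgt
Mir5121 hairpin: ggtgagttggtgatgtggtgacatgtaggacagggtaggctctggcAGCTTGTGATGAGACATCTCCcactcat
The letters of the box C core, TGATGA, stood at bases 9 to 14 of Snord33 and so fell within miR-5121. The letters of box D, CTGA, stood at bases 75 to 78. Searched on the sense strand, TGATGA occurred within the first 25 bases of 329 of 1507 annotated snoRNA transcripts (21.8%). Among 141767 annotated transcripts the mature sequence of miR-5121 matched exactly only those of Rpl13a, Snord33 and Mir5121, and no other transcript held it on the sense strand with 1 mismatch. The table alone cannot tell whether a miR-5121 read came from a hairpin product or from the 5' end of Snord33. It has no snoRNA feature at the place of Snord33, so there is no separate count of that snoRNA there.

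The sequence of miR-7649-3p, 23 bases long, is assigned to chr6:128974840-128974862 on the minus strand, at the 3' end of the Mir7649 hairpin. That hairpin lies in an exon of the non-coding RNA Gm15987 and, on the opposite strand, within an intron of Clec2g, a C-type lectin gene. The hairpin is shown because the mature sequence, in capitals, has a second copy.
Mir7649 hairpin: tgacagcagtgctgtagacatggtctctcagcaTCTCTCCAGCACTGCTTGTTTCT
Gm27336, a hairpin 43.0 kb away on the same strand (chr6:128931793-128931848), shared 55 of its 56 bases with Mir7649, and the whole of miR-7649-3p was identical in both. Reads of miR-7649-3p from these genes therefore cannot be told apart. The 5' arm, miR-7649-5p, matched Mir7649 exactly and Gm27336 with 1 mismatch.

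The snoRNA ENSMUST00000158915 spans 108 bases at chr19:17825520-17825627 on the plus strand. RefSeq places the snoRNA gene LOC115489057 at the same coordinates, within an intron of Pcsk5, a proprotein convertase gene, on the opposite strand. Its RNA target is not given in the annotation used. It is 1 of 50 snoRNA features, of 695 in the table, whose identifiers have no entry in GENCODE M21, and its sequence is not shown. None of the 3 loci is on chromosome 12, which carries Igh and both deleted enhancers.

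The libraries held between 3482540 and 18144016 counts. All 7 of a list of lymphocyte microRNAs were detected in every library and made up 18.1 to 29.5% of the microRNA counts without stimulation and 35.2 to 49.2% with LPS. A list of 9 microRNAs of myeloid, erythroid, endothelial, stromal, hepatic and neural cells had 6 that were also detected in every library. Without stimulation this list took 0.426 to 0.549% in wt, 0.353 to 1.05% in 3'RR-deficient and 1.59% in Eµ-deficient cells. With LPS it took 0.0233 to 0.0687% in wt, 0.0411 to 0.118% in 3'RR-deficient and 0.601% in Eµ-deficient cells. The neural miR-124-3p was at 0 in all 10 libraries. SnoRNA features made up 10.5 and 9.61% of the counts in the Eµ-deficient libraries and 3.00 to 8.57% in the others. The part that these differences in composition have in the values below was not tested. In such bulk samples, fewer cells of a type and less RNA per cell cannot be told apart.

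By total count over the libraries, miR-5121 ranked 310 in the table, ENSMUST00000158915 ranked 1113 and miR-7649-3p ranked 1171. None of them fell to 0 in any library, the lowest count being 9. Levels are given as CPM, counts scaled to a common library size by TMM over the whole table. The loci differed in which line had the lower level. The level of miR-5121 was lower in both lines, that of miR-7649-3p was lowest in the Eµ-deficient line, and that of ENSMUST00000158915 was lower in the 3'RR-deficient line while its sign in the Eµ-deficient line depended on the scaling, as the plot of the levels in all libraries shows.

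**Figure D1:**
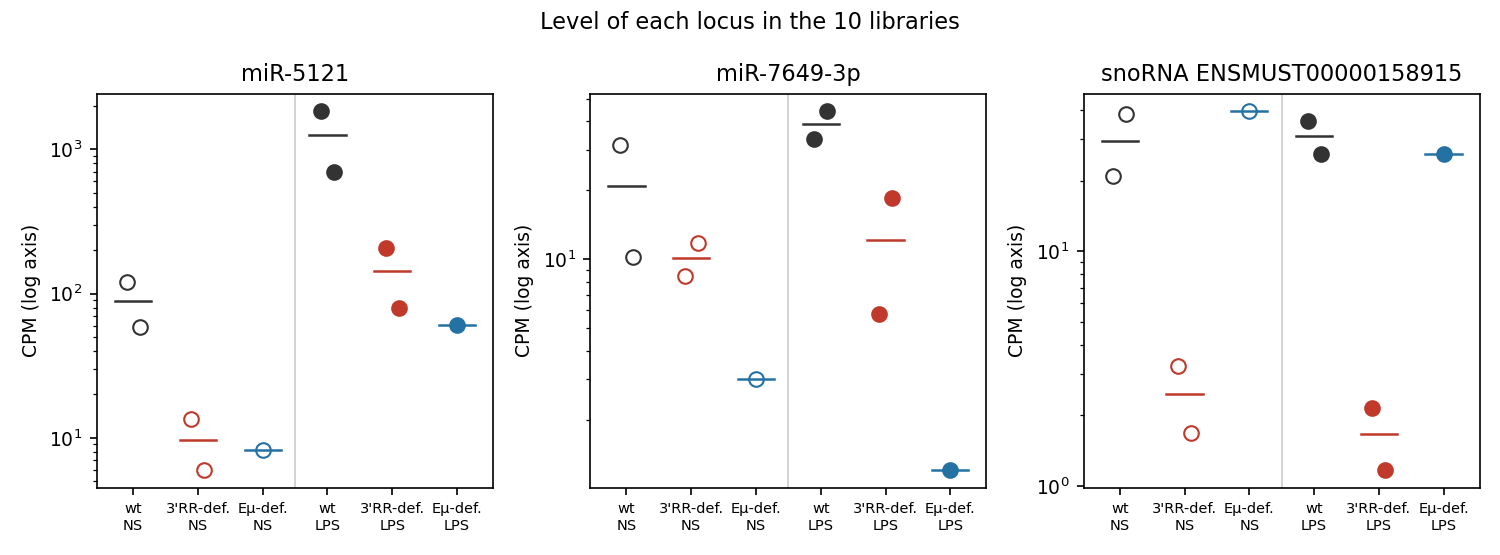
Level of miR-5121, miR-7649-3p and the snoRNA ENSMUST00000158915 in CPM on a log axis. Each point is 1 library, open without stimulation (NS) and filled with LPS, and bars are group means; the snoRNA points of 3'RR-deficient cells lie at 1.17 to 3.23 CPM and those of the other cells at 20.8 to 39.4 CPM. The 3 loci were chosen by these counts.

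For miR-5121, non-stimulated wt cells had 1168 and 294 counts, or 119.9 and 58.9 CPM. Non-stimulated 3'RR-deficient cells had 87 and 32 counts, or 13.4 and 5.99 CPM, and the Eµ-deficient library had 68 counts, or 8.22 CPM (exact Poisson 95% interval 6.38 to 10.4). The libraries of both deleted lines lay below both wt libraries, and the mean of 9.69 ± 5.24 CPM (SD, n = 2) in 3'RR-deficient cells was 9.23-fold below the wt mean of 89.4 ± 43.1 CPM (SD, n = 2). The Eµ-deficient level was 10.9-fold below wt. With LPS, wt cells had 13157 and 10018 counts, or 1834 and 702.1 CPM. LPS-stimulated 3'RR-deficient cells had 1249 and 1350 counts, or 207.0 and 79.0 CPM, and the Eµ-deficient library had 1347 counts, or 60.3 CPM (57.1 to 63.6). Again all 3 libraries of the deleted lines lay below both wt libraries. The 3'RR-deficient mean of 143.0 ± 90.5 CPM (SD, n = 2) was 8.87-fold and the Eµ-deficient level 21.04-fold below the wt mean of 1268 ± 800.4 CPM (SD, n = 2).

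The replicates of miR-5121 varied, but in parallel in wt and 3'RR-deficient cells. Replicate 1 was the higher in each of the 4 groups with replicates. Set against the wt library of the same number, the 3'RR-deficient log2 ratios were -3.14 and -3.26 without stimulation and -3.15 and -3.15 with LPS. The Eµ-deficient ratios to wt replicate 1 were -3.84 and -4.92. In the order of group means wt LPS stood alone at the top, followed by 3'RR-deficient LPS, wt non-stimulated and Eµ-deficient LPS, whose neighbours overlapped. The 3'RR-deficient and Eµ-deficient non-stimulated libraries came last and overlapped each other.

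For miR-7649-3p, non-stimulated wt cells had 308 and 51 counts, or 31.6 and 10.2 CPM. Non-stimulated 3'RR-deficient cells had 55 and 63 counts, or 8.47 and 11.8 CPM, and the Eµ-deficient library had 25 counts, or 3.02 CPM (1.96 to 4.46). Without stimulation the wt and 3'RR-deficient libraries thus overlapped, with means of 20.9 ± 15.1 and 10.1 ± 2.35 CPM (SD, n = 2 each), whereas the Eµ-deficient library lay below them, 6.93-fold under the wt mean. With LPS, wt cells had 241 and 631 counts, or 33.6 and 44.2 CPM. LPS-stimulated 3'RR-deficient cells had 35 and 318 counts, or 5.80 and 18.6 CPM, and the Eµ-deficient library had 27 counts, or 1.21 CPM (0.796 to 1.76). Here the libraries of both lines were below wt, the 3'RR-deficient mean of 12.2 ± 9.05 CPM by 3.19-fold and the Eµ-deficient level by 32.2-fold against 38.9 ± 7.52 CPM in wt (SD, n = 2 each).

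Same-numbered 3'RR-deficient to wt log2 ratios of miR-7649-3p were -1.88 and 0.20 without stimulation and -2.49 and -1.24 with LPS, so 1 of 4 had the opposite sign. The Eµ-deficient ratios were -3.31 and -4.59. The opposite arm, miR-7649-5p, had 4 and 3 counts in wt cells without and 5 and 22 with stimulation. In the deleted lines it had 0, 0, 0 and 8 counts in 3'RR-deficient cells and 0 and 1 in Eµ-deficient cells. Of the summed counts of both arm features, that of the 3' arm held between 94.4 and 100% in every library, but it may include reads of Gm27336 and so gives no share of arms for the Mir7649 hairpin.

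For ENSMUST00000158915, non-stimulated wt cells had 203 and 191 counts, or 20.8 and 38.3 CPM. Non-stimulated 3'RR-deficient cells had 21 and 9 counts, or 3.23 and 1.68 CPM, and the Eµ-deficient library had 326 counts, or 39.4 CPM (35.2 to 43.9). The 3'RR-deficient mean of 2.46 ± 1.10 CPM was 12.02-fold below the wt mean of 29.6 ± 12.3 CPM (SD, n = 2 each), and the Eµ-deficient level was 133% of wt. With LPS, wt cells had 257 and 372 counts, or 35.8 and 26.1 CPM. LPS-stimulated 3'RR-deficient cells had 13 and 20 counts, or 2.15 and 1.17 CPM, and the Eµ-deficient library had 582 counts, or 26.0 CPM (24.0 to 28.2). The 3'RR-deficient mean of 1.66 ± 0.696 CPM was 18.6-fold below the wt mean of 30.9 ± 6.90 CPM (SD, n = 2 each). The Eµ-deficient level was 84.1% of that mean and 99.9% of the lower wt library.

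Same-numbered 3'RR-deficient to wt log2 ratios of this snoRNA were -2.62 and -4.35 without stimulation and -3.94 and -4.26 with LPS. They describe the counts by which the snoRNA was chosen. The Eµ-deficient ratios were 0.91 and -0.46. Averaged over both conditions the Eµ-deficient to wt log2 ratio was 0.08, but it was -0.37 in CPM without TMM scaling and -1.18 when the snoRNA class was scaled alone, so its sign depended on the scaling. In the same comparison the median of the 322 snoRNA features tested was 1.06, against -0.11 for all 4554 features tested.

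In the fits over both conditions the log2 differences of 3'RR-deficient from wt cells were -3.20 for miR-5121, -1.39 for miR-7649-3p and -3.94 for ENSMUST00000158915. Those of Eµ-deficient from wt cells were -3.88, -3.78 and 0.07. All 3 loci passed the filter on low counts in both fits. As background, edgeR called 0.0251% of 3987 features lower in 3'RR-deficient cells and 0.0878% of 4554 lower in Eµ-deficient cells at an adjusted p under 0.05. Nothing is read from these shares about the loci, because the same contrasts chose them.

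Both 3'RR-deficient libraries lay below both wt libraries in each condition for 2 of the 3 loci, miR-5121 and the snoRNA, and for 1.65% of all 4554 features. The Eµ-deficient library did so for 2 of 3, miR-5121 and miR-7649-3p, and for 12.6% of all features. Only miR-5121 did so in both lines, which 0.725% of all features did. The snoRNA did so in the 3'RR-deficient line and not in the Eµ-deficient line, as did 0.922% of all features, and the reverse held for miR-7649-3p and 11.9%.

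No feature near the loci was called between genotypes, but the test could not show whether these features shared the lower counts. In the 100 kb on either side of the 3 loci the table has 6 other features, of which 4 were tested between 3'RR-deficient and wt cells and 5 between Eµ-deficient and wt cells. edgeR called 0 of 4 and 0 of 5, and at an unadjusted p under 0.05 the numbers were 0 and 1. The 1 was miR-7649-5p, the opposite arm of the chosen miR-7649-3p. DESeq2 also called 0 in both comparisons. Of all features tested 0.0251% and 3.43% were called in either direction, the latter made up of 3.34% higher and 0.0878% lower. With so few features called lower, 0 calls among 4 or 5 neighbours would be found in most sets, and nothing is read from them. The spread between replicates was wide, so differences within the intervals given here were not detectable.

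The piRNA cluster feature piRNAclusterDB_250 covers miR-5121 on the same strand, from 45117753 to 45130020 on chromosome 7. Its log2 difference from wt was -0.30 in 3'RR-deficient cells (95% interval -1.20 to 0.61, adjusted p = 0.999) and 0.68 in Eµ-deficient cells (-0.27 to 1.63, adjusted p = 0.539). The counts of both features are not nested, since that of miR-5121 could be the larger. Expressed as a percentage of the count of piRNAclusterDB_250, the count of miR-5121 was 5.48 and 3.40% in wt cells without stimulation and 183.5 and 94.4% with it. In 3'RR-deficient cells it was 0.838 and 0.606% without stimulation and 19.5 and 10.5% with LPS, and in Eµ-deficient cells 0.272 and 4.09%. In each genotype the ratio was higher with LPS than without. The lower ratios of the deleted lines rest on the counts by which miR-5121 was chosen and are a description only.

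Both arms of miR-150, an abundant microRNA of mature lymphocytes encoded near Rpl13a, were measured as well. The log2 difference of miR-150-5p was 0.27 in 3'RR-deficient cells (-0.83 to 1.38, adjusted p = 0.999) and -0.26 in Eµ-deficient cells (-1.41 to 0.89, adjusted p = 0.861). For miR-150-3p the values were 0.87 (adjusted p = 0.999) and -0.35 (adjusted p = 0.805). The microRNA hairpin ENSMUST00000102350, on chromosome 19 near the snoRNA ENSMUST00000158915, had values of 0.06 (adjusted p = 0.999) and 0.86 (adjusted p = 0.623). The remaining feature tested was miR-7649-5p, from the same hairpin as miR-7649-3p, at -4.72 in Eµ-deficient cells (SE 1.76). It passed the filter of that fit through 1 wt LPS library with 22 counts, against 0 to 8 in the others. As the opposite arm of a chosen locus, miR-7649-5p is not an independent neighbour, and its value is a description. Its counts were too low for the fit with 3'RR-deficient cells, and the piRNA cluster feature piRNAclusterDB_1177, with 0 to 7 counts, was tested in neither. The same-numbered ratios of the loci and these neighbours are plotted side by side.

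**Figure D2:**
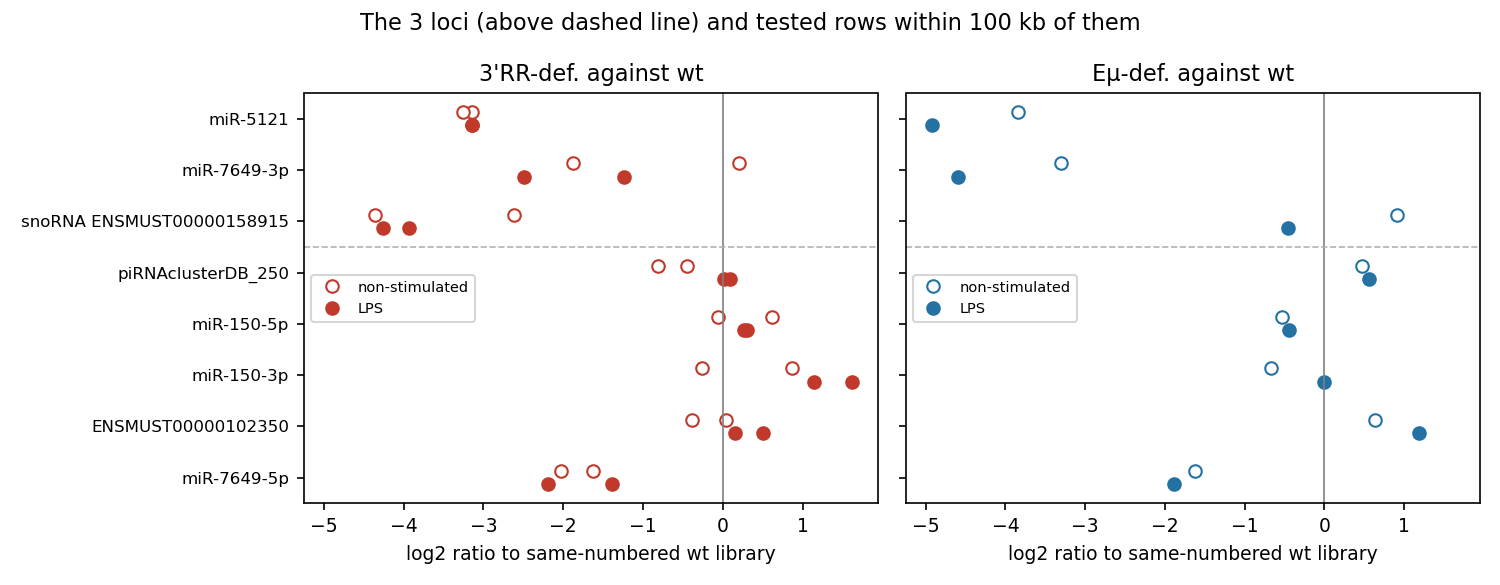
Log2 ratio of each deleted-line library to the wt library of the same number and condition, for the 3 loci above the dashed line and 5 features within 100 kb below it, in 3'RR-deficient (left) and Eµ-deficient cells (right). Open points are non-stimulated and filled points LPS-stimulated; the miR-5121 points lie between -4.92 and -3.14, those of the piRNA cluster feature that covers it between -0.81 and 0.56, and those of miR-7649-5p, with 0 to 8 counts in the deleted lines, between -2.18 and -1.39.

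The LPS response asks how the loci behave when resting B-cells are activated, and it is independent of the genotype contrast that chose them. Over wt and 3'RR-deficient cells together, 1 of the 3 loci passed the test, and edgeR called 180 of 3987 features (4.51%), with 2.16% higher and 2.36% lower. miR-5121 rose with LPS by 3.80 on the log2 scale (SE 0.58, 95% interval 2.50 to 5.10, edgeR adjusted p = 0.0128). Same-numbered wt and 3'RR-deficient libraries deviated together within a condition, with r = 0.72 without stimulation and 0.39 with LPS. The fit counts these libraries as independent, so the SE and adjusted p may be too small. The mean of miR-5121 was 14.2-fold higher with LPS in wt and 14.8-fold higher in 3'RR-deficient cells. In Eµ-deficient cells, with 1 library per condition, it was 7.33-fold higher. miR-7649-3p had a difference of 0.46 (SE 0.46, adjusted p = 0.58) and ENSMUST00000158915 one of -0.32 (SE 0.43, adjusted p = 0.677), and neither passed.

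Within each genotype, with 2 libraries per condition, edgeR called 0 of 3987 features. In wt cells 453 features had an unadjusted p under 0.05 and DESeq2 called 121, and in 3'RR-deficient cells the numbers were 415 and 113. The difference of miR-5121 was 3.79 in wt (SE 0.90, adjusted p = 0.217) and 3.82 in 3'RR-deficient cells (SE 0.91, adjusted p = 0.32), and it was among the features called by DESeq2 in both genotypes (adjusted p = 0.000186 and 0.000335). For miR-7649-3p the differences were 0.80 in wt (adjusted p = 0.617) and 0.11 in 3'RR-deficient cells (adjusted p = 0.957). The lower wt LPS library of miR-7649-3p, at 33.6 CPM (Poisson 95% interval 29.5 to 38.1), was close to the higher non-stimulated one. That library had 31.6 CPM (28.2 to 35.4), so the wt conditions were not separated beyond counting error. The 3'RR-deficient libraries overlapped between conditions. The Eµ-deficient level with LPS was 0.40 times that without, with 1 library each. For ENSMUST00000158915 the differences were -0.02 in wt (adjusted p = 0.993) and -0.70 in 3'RR-deficient cells (adjusted p = 0.751).

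Whether the LPS response differed between 3'RR-deficient and wt cells was tested as an interaction. edgeR and DESeq2 each called 0 of 3987 features, 39 of them having an unadjusted p under 0.05 in edgeR. For miR-5121 the difference of the responses was 0.03 on the log2 scale (95% interval -2.44 to 2.51), for miR-7649-3p it was -0.69 (-2.90 to 1.52) and for ENSMUST00000158915 it was -0.68 (-2.71 to 1.35), with an edgeR adjusted p of 1.00 for each. These intervals allow several-fold differences in either direction.

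**Figure D3:**
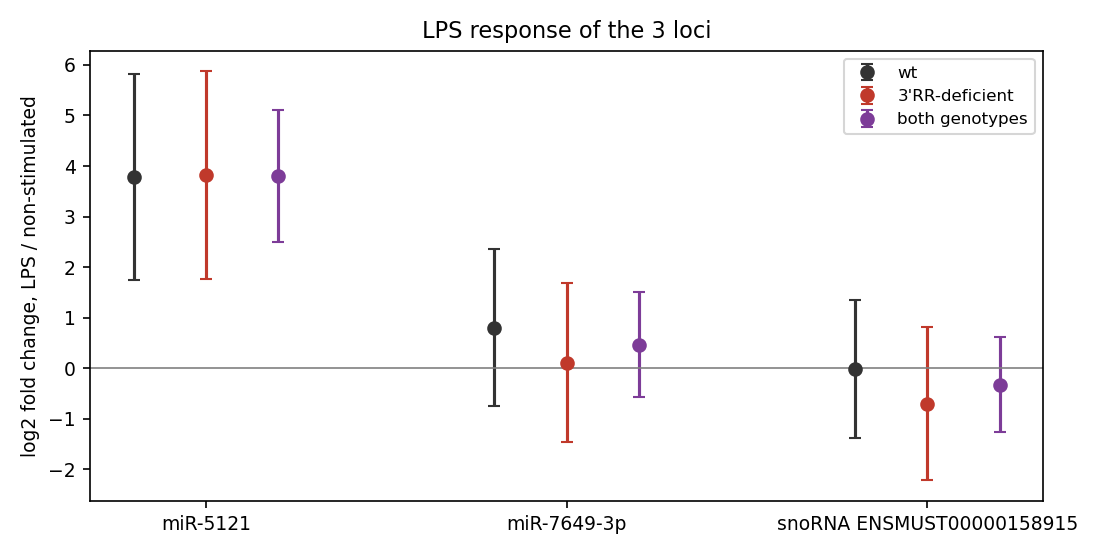
Log2 difference of LPS-stimulated from non-stimulated cells for the 3 loci in wt cells, in 3'RR-deficient cells and over both, from the edgeR fits. Bars are 95% confidence intervals; only those of miR-5121 lie wholly above 0, at 2.50 to 5.10 over both genotypes.

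Since miR-5121 lies within a snoRNA, it was set beside the mature microRNAs whose coordinates overlap a snoRNA feature of the table on the same strand. Of these 14 microRNAs 12 were tested for the LPS response, 0 rose and 4 fell, namely miR-664-3p, miR-1843a-3p, miR-1843b-3p and miR-6516-5p, with log2 differences of -2.50, -2.73, -2.45 and -2.23. Their median was -1.47 and their range -2.73 to -0.85, against a median of -0.05 for all features tested, of which 2.36% were called lower. Mature microRNAs as a class had a median of -0.83, and 66 of 603 were called lower and 23 higher. When the microRNA class was scaled alone, the median of all its features tested, hairpins included, was 0.07. A general fall of the class is therefore not read from the first median. The response of miR-5121 was opposite in sign to these 12, also with DESeq2 size factors, with total count scaling and in the microRNA class alone. Total count scaling moved the median of all features tested from -0.05 to 0.35. Other microRNAs overlap, as miR-5121 does, a snoRNA of GENCODE M21 but no snoRNA feature of the table. Of 7 such microRNAs 6 were tested, with LPS differences between -0.21 and 1.65 and a median of 0.34, of which 3 were above and 3 below 0, and all 6 were above 0 with total count scaling and in the microRNA class alone. The highest of them, named after its value was seen, was miR-7650-5p at 1.65 (adjusted p = 0.121). Between 3'RR-deficient and wt cells the log2 differences of the 12 lay between -0.19 and 0.56 and those of the 6 between -0.82 and 0.77, with edgeR calling 0 in each list. Between Eµ-deficient and wt cells it called 0 of 13 in the first list, with a median of 0.37, and 0 of 6 in the other, with a median of -0.05 and a lowest value of -1.14.

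Among all snoRNA features, 7 of 282 were called higher and 21 lower with LPS, with a median of -1.04, and ENSMUST00000158915 at -0.32 was among those not called. This split depended on the scaling, being 18 higher and 9 lower with total count scaling, and 36 higher and 11 lower of 276 in the snoRNA class alone. Between 3'RR-deficient and wt cells their median was -0.02. Between Eµ-deficient and wt cells 44 of 322 were called higher and 1 lower, but 13 and 11 of 301 when the class was scaled alone.

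The features whose levels followed each locus most closely over the 10 libraries were found by Pearson's r of log2 CPM. The libraries share the same genotypes, conditions and depths, so r is a description. For miR-5121 these were 3 piRNA cluster features, piRNAclusterDB_1312 (r = 0.927), piRNAclusterDB_164 (r = 0.904) and piRNAclusterDB_1829 (r = 0.899). For miR-7649-3p they were piRNAclusterDB_22 (r = 0.913), let-7g-3p (r = 0.881), the minor arm of a let-7 precursor, and piRNAclusterDB_238 (r = 0.873). For ENSMUST00000158915 they were miR-297b-3p (r = 0.935) and miR-297a-3p (r = 0.926), members of a multicopy family whose reads cannot be told apart with certainty, and the snoRNA ENSMUST00000158327 (r = 0.903). The last had 14 and 19 counts in wt cells without and 3 and 15 with stimulation, 0 in all 4 3'RR-deficient libraries, and 33 and 49 in Eµ-deficient cells. These low counts are a description. ENSMUST00000158327 was picked for following a locus that was itself chosen by its low 3'RR-deficient counts, so its pattern is no separate result. Among the 3 loci themselves r was 0.55 between the microRNAs, 0.32 between miR-5121 and the snoRNA, and -0.02 between miR-7649-3p and the snoRNA.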

How the data were processed

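Small RNA of 10 libraries was prepared with the NextFlex kit (17 PCR cycles), selected for short inserts and read for 75 nt, per the labels. The authors deposited whole-number read counts per feature without normalization. The submitters' processing notes name cutadapt 1.2.1, Bowtie2 and the mm10 build. The counting program, the annotation and the handling of strand and of reads with several matches are not given in the sources used here, and the study's methods name no test for small RNA counts. Without molecular identifiers, Poisson intervals cover counting error only.

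The loci and lists were chosen with earlier results of these data known. Tests were fitted on the whole table with edgeR 4.0.16 in R 4.3.3 (TMM scaling, filterByExpr by group, two-sided quasi-likelihood F-test, Benjamini-Hochberg adjustment over all features tested, threshold 0.05). The 8 wt and 3'RR-deficient libraries were fitted together, and Eµ-deficient cells were compared in an additive fit of all 10 libraries. The fits were tested on simulated data. A prior count of 2 was added for log2 ratios between libraries. Named features were the loci, features overlapping them, other arms, features within 100 kb that passed a test or otherwise the nearest with a mean of at least 10 counts, and the 3 most correlated features with a mean of at least 10 counts. Sequences came from RefSeq (GRCm38.p6) and GENCODE M21. Deviations of same-numbered libraries from their group means correlated at 0.72 between the non-stimulated groups and 0.39 between the LPS groups of wt and 3'RR-deficient cells, and at -0.24 to 0.005 between the other groups. The fits had no block, so the LPS test over both genotypes counted same-numbered libraries of a condition as independent. The replicate block tried as an alternative spans both conditions and does not model deviations shared within 1 condition. Same-numbered ratios between genotypes are a description. Alternatives were other scalings and filters, DESeq2 1.42.0, the replicate block, each class alone, other windows and leaving out each library.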

Additional observations from a re-analysis of the deposited data

How the results depend on the processing

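The rise of miR-5121 with LPS over both genotypes passed the threshold in all 16 alternatives, at 3.41 to 4.36 on the log2 scale (adjusted p 3.27e-10 to 0.0343). The number of features called in that fit, 180, became 340 with total count scaling, 717 without a filter, 288 with a filter of 10 CPM and 568 with DESeq2, and lay between 27 (without the second wt LPS library) and 304 (without the first non-stimulated wt library) when libraries were left out in turn. Within wt cells the number called was 7 with total count scaling, 176 without a filter, 121 with DESeq2 and 5 in the microRNA class alone, and within 3'RR-deficient cells 6, 166, 113 and 7. miR-5121 passed within wt cells with total count scaling (4.24, adjusted p = 0.0499), without a filter (3.82, 0.00105), with DESeq2 (3.79, 0.000186) and in the microRNA class alone (4.30, 0.0252), and within 3'RR-deficient cells without a filter (3.88, 0.00109), with DESeq2 (3.76, 0.000335) and in the class alone (4.43, 0.0277). It passed in no other setting, that is in 4 of 15 in wt and 3 of 15 in 3'RR-deficient cells, and in 0 of the 8 edgeR fits that left out a library. Leaving out libraries gave 2.93 (without the first wt LPS library) to 4.34 in wt, with adjusted p up to 0.789, and in 3'RR-deficient cells 2.82 and 4.41 without the first and second LPS library and 4.48 without the first non-stimulated one, with adjusted p up to 0.664.

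Signs changed for differences that passed in no setting. The difference of the miR-5121 responses was -0.027 with DESeq2 size factors and -0.025 with DESeq2, and -0.94 to 0.93 with libraries left out. The snoRNA's wt response was 0.15 with total count scaling, 0.067 without a filter, 0.94 in the snoRNA class alone and -0.42 to 0.58 with libraries left out, and its response over both genotypes was 0.46 in the snoRNA class alone. The response of miR-7649-3p in 3'RR-deficient cells was -0.83 to 0.67 with libraries left out. The Eµ-deficient to wt ratio of the snoRNA, 0.08, was -0.37 without TMM and -1.18 in its own class. Within 1000 kb, 1 feature was called in Eµ-deficient cells, the snoRNA ENSMUST00000116853, which was higher (1.98, adjusted p = 0.0353). The cause of these changes was not tested.

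With the replicate number as a block, 293 features were called for the LPS response over both genotypes, and miR-5121 was at 3.69 (adjusted p = 0.00233). The block changed no LPS or interaction call of the 3 loci and no call of their neighbours. A block within each condition was not run for the LPS response, since each such block lies in 1 condition. No alternative for that response therefore modelled the deviations shared within a condition. Of 301 alternative values, 252 kept direction and side of the threshold (for counts and ratios without a test, a size within the limits of 1.5 times or 1 replicate SD). Leaving out an Eµ-deficient library was run only for the fit of all 10. With 2 pools per group, 1 per Eµ-deficient group and replicate SDs of 0.884 (miR-5121), 0.856 (miR-7649-3p) and 0.575 (snoRNA) on the log2 scale, differences much larger than those spreads could be missed, as the uncalled miR-5121 differences within each genotype (3.79 and 3.82) show.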
